A study of Mus musculus with 20 samples.

Results

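The HoxB cluster is one of the 4 groups of Hox genes in the mouse genome, and its 10 members, Hoxb1 to Hoxb9 and Hoxb13, were chosen here by gene name from the 37620 genes of the expression table. Each symbol matched 1 Ensembl identifier, and each of the 10 genes had at least 1 read in at least 1 library. RNA was sequenced from whole dorsal root ganglia (DRG) of C57Bl6 mouse embryos at E18.5, shortly before birth. Each of 10 embryos, 5 male and 5 female, gave 1 library of its L4-5 ganglia (lumbar) and 1 of its L6-S1 ganglia just below, which the study calls sacral. The 4 groups, 2 levels in males and in females, thus held 5 libraries each, with no transgene or treatment named in the labels. Expression was given as log2 RPKM, the log2 of a read count scaled to the exon length of the gene and to the size of the library. The question of the comparison is which transcripts differ between the ganglia that hold the sensory neurons of the pelvic organs and those one level above, and whether this depends on sex.

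Hox genes encode homeodomain transcription factors that give cells their position along the body axis. Within a cluster the genes lie in the order in which they are used from head to tail: low paralog numbers are active from the hindbrain backward, and higher numbers start further back. Neural crest cells and spinal neurons keep part of this code after it is laid down, so that the combination of Hox transcripts in a ganglion reflects its level. The HoxB cluster differs from the other 3 clusters in that it has no members of groups 10, 11 and 12, so Hoxb9 is followed only by the distant Hoxb13.

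All 10 genes lie on the + strand of chromosome 11 (mm9). Hoxb13 is at chr11:96055630-96058761, Hoxb9 at chr11:96132771-96137909, Hoxb8 at chr11:96143219-96146639 and Hoxb7 at chr11:96145571-96151650. They are followed by Hoxb6 at chr11:96153790-96162883, Hoxb5 at chr11:96163909-96167434, Hoxb4 at chr11:96177998-96182952, Hoxb3 at chr11:96184640-96207999, Hoxb2 at chr11:96212946-96217003 and Hoxb1 at chr11:96227066-96229570. The libraries held between 19403026 and 39257772 recovered reads, of which 18.12% to 61.44% came from mitochondrial ribosomal RNA (rRNA). The defining genes of sensory neurons were present throughout, the least abundant of 7 markers having a median of 18.4 RPKM. In libraries of whole ganglia, fewer cells of one type and less RNA per cell cannot be told apart.

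Within the cluster, 8 genes were detected in each of the 20 libraries and 2 were almost silent. On the per-length scale, the order in lumbar DRG was Hoxb9, Hoxb7, Hoxb5, Hoxb6, Hoxb8, Hoxb4, Hoxb3 and Hoxb2. Mean levels in the 10 lumbar libraries were 3.95 RPKM ± 0.522 (SD, n = 10) for Hoxb9, 3.26 ± 0.565 for Hoxb7, 1.89 ± 1.01 for Hoxb5, 1.4 ± 0.694 for Hoxb6 and 1.12 ± 0.452 for Hoxb8. They were 0.787 RPKM ± 0.437 for Hoxb4, 0.686 ± 0.281 for Hoxb3 and 0.181 ± 0.103 for Hoxb2. Within a lumbar library Hoxb9 exceeded Hoxb7 by 0.29 ± 0.26 on the log2 scale, in 8 of 10 libraries, and Hoxb7 exceeded Hoxb5 by 0.91 ± 0.79, also in 8 of 10. From Hoxb6 through Hoxb8 and Hoxb4 to Hoxb3, the log2 gaps between neighbours in this order, 0.30 ± 1.03, 0.59 ± 1.33 and 0.10 ± 0.47, were within their spread. Hoxb6 was nevertheless above both Hoxb4, by 0.89 ± 0.60, and Hoxb3, by 0.99 ± 0.34, in each of the 10 lumbar libraries. Hoxb2 was below Hoxb3 in each of the 10 lumbar libraries, by 2.17 ± 1.45.

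In sacral DRG the same genes stood in another order, led by Hoxb5. Mean levels were 2.65 RPKM ± 1.47 (SD, n = 10) for Hoxb5, 2.12 ± 0.662 for Hoxb7, 1.86 ± 0.521 for Hoxb9, 1.29 ± 0.703 for Hoxb6 and 0.892 ± 0.563 for Hoxb4. They were 0.758 RPKM ± 0.484 for Hoxb3, 0.474 ± 0.240 for Hoxb8 and 0.199 ± 0.132 for Hoxb2. The 3 leading genes did not differ beyond their spread: the log2 gap was 0.20 ± 0.69 between Hoxb5 and Hoxb7 and 0.18 ± 0.34 between Hoxb7 and Hoxb9, each in favour of the first gene in 5 of 10 libraries. Hoxb9 exceeded Hoxb6 in 9 of 10 sacral libraries, by 0.69 ± 0.82.

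**Figure D1:**
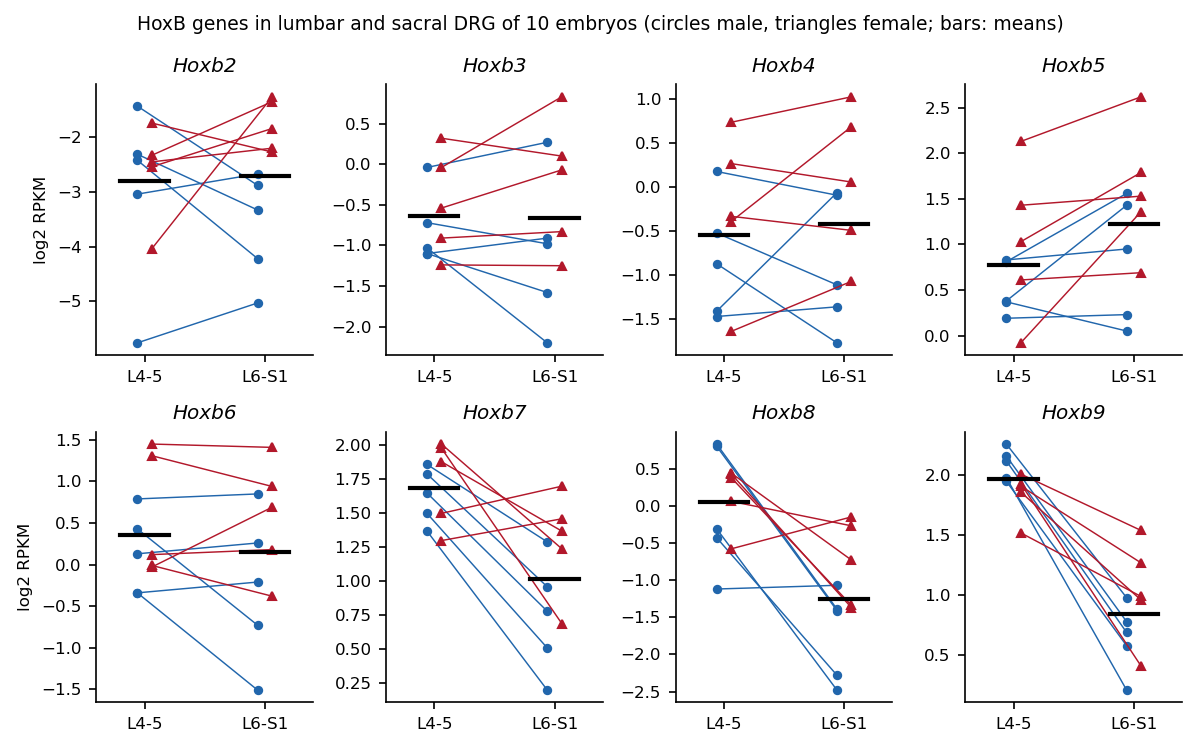
Level of each HoxB gene detected in all libraries (log2 RPKM, vertical axis) in the lumbar L4-5 and sacral L6-S1 ganglia of the same embryo, joined by a line, with circles for males, triangles for females and black bars for the means of 10 libraries. Lines fall from lumbar to sacral for Hoxb9 in 10 of 10 embryos and for Hoxb8 and Hoxb7 in 8 of 10, and rise for Hoxb5 in 9 of 10.

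Of 6 members tested, 3 neighbours in the cluster, Hoxb7, Hoxb8 and Hoxb9, were lower in sacral than in lumbar DRG, and no member was called higher. The test used limma with the embryo as a block. It covered the 14529 genes whose mean log2 RPKM reached that of 1 RPKM in any of the 4 groups. A call was an adjusted p of at most 0.05. Of all genes tested, 6.73% were called between the levels and 4.03% were called lower in sacral DRG. The 392 higher and 586 lower calls depended on the scaling: they were 437 and 410 after quantile normalization, and 475 and 324 with library totals that leave out mitochondrial rRNA. The 6 tested members had a median log2 difference of -0.43, beside a median of -0.0475 over all genes tested. Hoxb4, Hoxb5 and Hoxb6 were tested and not called, and Hoxb1, Hoxb2, Hoxb3 and Hoxb13 stayed under the limit of 1 RPKM. Hoxb8 reached that limit only in lumbar females (mean log2 RPKM 0.15), where it is high, and Hoxb4 only in sacral females (0.04). The limit thus shapes the count and median of the 6. Without it, the same 3 of 10 members were called, beside 1.75% of 29049 genes. The same 3 genes were called under each of the 21 alternatives that tested them, including the 10 that left out 1 embryo each. The calls were not equally firm: the largest adjusted p in limma was 0.000287 for Hoxb9, but 0.0356 for Hoxb7 and 0.0463 for Hoxb8, both without the block. A limit of 5 RPKM left no member to test.

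Hoxb9, a gene of the thoracic and lumbar regions of the embryo, fell in each of the 10 embryos. The lumbar values in log2 RPKM were 2.16, 2.26, 1.98, 1.95 and 2.12 in male donors M1, M3, M5, M7 and M8, and 1.93, 2.01, 1.52, 1.91 and 1.86 in female donors F3, F7, F8, F9 and F10. The sacral values of the same donors were 0.78, 0.98, 0.21, 0.58 and 0.69 in males and 0.41, 1.54, 0.99, 1.27 and 0.96 in females. Only the sacral library of F7 reached into the lumbar range, just above the lumbar library of F8, so that 9 of 10 sacral values lay below every lumbar value. The fitted log2 difference was -1.13 ± 0.11 (SE), a 2.19-fold lower level, with an adjusted p of 2.1e-06 in limma. The groups behind it held 166 to 380 reads of Hoxb9 per lumbar and 59 to 173 per sacral library. A fall or rise in all 10 donors was seen in 2.85% of the genes tested, and values of the levels that did not overlap at all in 0.138%, which Hoxb9 did not reach.

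Hoxb8, known from mutant mice for its part in dorsal horn development and grooming, had the largest difference of the members tested. Its lumbar values in log2 RPKM were -0.43, 0.83, -1.12, -0.31 and 0.80 in M1, M3, M5, M7 and M8, and 0.44, -0.58, 0.06, 0.43 and 0.38 in F3, F7, F8, F9 and F10. Its sacral values were -2.28, -1.39, -1.07, -2.48 and -1.41 in the males and -0.73, -0.15, -0.27, -1.37 and -1.34 in the females, in the same order. In 8 of 10 donors Hoxb8 was lower in the sacral library, and in M5 and F7 it was higher by 0.05 and 0.43. The levels overlapped, with 6 of 10 sacral values below every lumbar value. The fitted log2 difference was -1.30 ± 0.27 (SE), 2.46-fold lower, with an adjusted p of 0.00781 in limma. Hoxb8 was thin in sacral DRG, where it had 13 to 62 reads per library against 20 to 156 in lumbar DRG, and on a log2(RPKM + 0.5) scale the difference was -0.72.

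Hoxb8 carries the sequence feature that sets it apart from the rest of the cluster, a nearly complete match to the microRNA miR-196a, which is itself encoded in the cluster between Gm53 and Hoxb9 (hairpin Mir196a-1, chr11:96126478-96126579, + strand, mm9). MicroRNAs pair with target transcripts through their seed, bases 2 to 8. The mature sequence from RefSeq (GRCm38.p6) is shown with the seed in capitals, and the 3′ UTR sites of mm9 with the 7 bases opposite the seed in capitals.
miR-196a-5p: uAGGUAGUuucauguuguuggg
Hoxb8 site, chr11:96146202-96146223: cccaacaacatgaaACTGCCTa
Hoxb7 site, chr11:96151098-96151119: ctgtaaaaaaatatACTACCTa
In an ungapped alignment, the Hoxb8 site paired with all 22 bases of the microRNA, 21 by Watson-Crick pairs and 1 by a G:U pair that lies in the seed. Of 19675 mouse 3′ UTRs searched in the same way, 1 held a site with at least 20 Watson-Crick pairs, that of Hoxb8. The exact seed match ACTACCT (sense strand only) was found in 4.70% of these 3′ UTRs, and in the cluster in those of Hoxb7, Hoxb6 and Hoxb1, where the sites paired with 14, 12 and 12 bases by Watson-Crick pairs. The other microRNA of the cluster, miR-10a, encoded inside Hoxb4, had no exact seed match in any of the 10 HoxB 3′ UTRs, beside 9.85% of all 3′ UTRs.
miR-10a-5p: uACCCUGUagauccgaauuugug
The libraries cannot give the level of the mature microRNAs: the Mir196a-1 hairpin had 13 reads over all 20 libraries and the Mir10a hairpin 42. A match is a description of letters, and its part in the level of Hoxb8 was not tested.

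Hoxb7, a gene of the trunk that is also used in the kidney duct, was lower in sacral DRG in most embryos. The lumbar values in log2 RPKM were 1.65, 1.79, 1.37, 1.5 and 1.86 in M1, M3, M5, M7 and M8, and 2.01, 1.5, 1.30, 1.88 and 1.98 in F3, F7, F8, F9 and F10. In the sacral libraries they were 0.78, 0.96, 0.20, 0.51 and 1.29 in males and 1.24, 1.70, 1.46, 1.37 and 0.69 in females. The sacral value was below the lumbar one in 8 of 10 donors, and above it in F7 and F8, by 0.20 and 0.16. The fitted log2 difference was -0.66 ± 0.13 (SE), 1.58-fold lower, with an adjusted p of 0.00512 in limma.

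Hoxb7 and Hoxb8 are not independent measurements. A transcript of Hoxb7 that the annotation marks as readthrough begins inside Hoxb8, and the genes share 1069 exon bases, 26.2% of those of Hoxb7 and 40.4% of those of Hoxb8. In the table, 5 of 5 pairs of identifiers with identical exons held equal reads in all 20 libraries, so a read in a shared stretch counted for both genes. With all Hoxb8 reads taken off Hoxb7 in each library, a choice made after seeing the data, the mean log2 difference of Hoxb7 was -0.53 ± 0.56 (SD, n = 10 donors), lower in 8 donors (two-sided exact sign-flip test, p = 0.0195). The same exact test on the values as deposited gave -0.66 ± 0.51 and p = 0.00781.

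**Figure D2:**
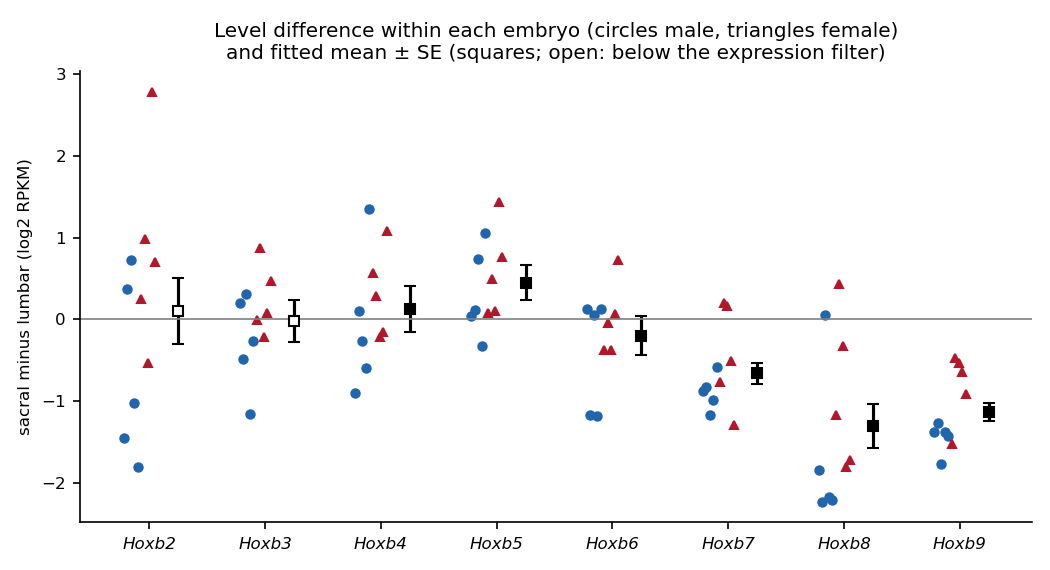
Sacral minus lumbar difference within each embryo (log2 RPKM, vertical axis) for 8 HoxB genes in paralog order, with circles for males and triangles for females, and squares for the limma mean ± SE (open for genes under the expression limit). The fitted differences run from 0.45 for Hoxb5 through -0.20 for Hoxb6 and -0.66 for Hoxb7 to -1.30 for Hoxb8 and -1.13 for Hoxb9.

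On the other side of Hoxb7, the members of lower number were not called. Hoxb6, a gene of trunk mesoderm and spinal cord, had a log2 difference of -0.20 ± 0.24 (SE; adjusted p = 0.62 in limma) and was lower in sacral DRG in 5 of 10 donors. Hoxb5, which acts in neural crest and enteric nerve precursors, had a log2 difference of 0.45 ± 0.21 (adjusted p = 0.196) and was higher in sacral DRG in 9 of 10 donors. An exact sign-flip test of Hoxb5 gave p = 0.0312 (two-sided, for this gene alone). Of the 6 members tested, 4 had an unadjusted p under 0.05 in limma, the called genes and Hoxb5. Lumbar Hoxb5 values ran from -0.08 to 2.13 with a median of 0.71 log2 RPKM, and sacral values from 0.05 to 2.62 with a median of 1.39, so the levels overlapped over nearly their whole range. Under the alternatives the adjusted p of Hoxb5 stayed between 0.0521 and 0.454. Hoxb4, a gene of the hindbrain and neck that is also known from blood stem cells, had a log2 difference of 0.13 ± 0.28 (adjusted p = 0.814), with 5 donors in each direction.

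The 4 members under the expression limit were looked at in a fit without that limit, in which 1.75% of 29049 genes were called. None of the 4 was called. Hoxb3, a hindbrain gene, had 18 to 155 reads per library and a log2 difference of -0.02 ± 0.26 (SE; adjusted p = 0.993 in limma). Hoxb2, which acts with Hoxb1 in the hindbrain, had 1 to 41 reads per library and a difference of 0.10 ± 0.40 (adjusted p = 0.931). Much of its exon overlaps an antisense transcript.

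Hoxb1 and Hoxb13 stand at the ends of the cluster and were at or near 0. Hoxb1, the earliest gene of the cluster in the hindbrain, had 2 reads in the lumbar library of M8 and 0 in the other 19 libraries. Hoxb13, which acts at the end of the tail and in the prostate, had 4 reads in the lumbar library of M8, 3 in the sacral library of F7, 2 in the sacral library of F9 and 0 in the other 17. Where no read was counted, up to 3 may have been missed (95% limit, counting error alone), so no difference between the levels was detectable for either gene at this depth. Over all libraries of a level Hoxb13 had 4 reads in lumbar and 5 in sacral DRG.

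The absence of Hoxb13 reads did not extend to group 13 as a whole. Hoxc13 had 73 reads over the 10 lumbar and 575 over the 10 sacral libraries and was higher in the sacral library of each of the 10 donors, with a log2 difference of 3.78 ± 0.65 (SE; adjusted p = 0.00477 in limma without the expression limit). Hoxd13 had 0 reads in all lumbar libraries and 68 over the sacral ones, in 7 of 10 libraries. Without the library with the most reads, the lumbar sum of Hoxc13 was 48 (without M3) and the sacral sum of Hoxd13 was 45 (without M8). Hoxa13 had 17 reads in lumbar and 22 in sacral DRG, 11 of them in lumbar M5 and 13 in sacral F9, and was not called (adjusted p = 0.964 in limma). Log2 differences of genes with blank values depend on the 0.5 reads set for a blank.

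Between Hoxb13 and Hoxb9 lies a long stretch with other annotated genes, of which 1 followed Hoxb9. Gm53, annotated as protein coding at chr11:96112419-96126182, had a log2 difference of -0.77 ± 0.21 (SE; adjusted p = 0.0309 in limma) and was lower in sacral DRG in 9 of 10 donors. Its level was 1.25 RPKM ± 0.311 (SD, n = 10) in lumbar and 0.758 ± 0.306 in sacral DRG, with F7 again the exception. Gm11539, an annotated pseudogene beside it, was not called (-0.27 ± 0.12, adjusted p = 0.185). Gm11538, a long noncoding RNA next to Hoxb13 at chr11:96064768-96066794, had 6 reads over all lumbar and 105 over all sacral libraries and was higher in sacral DRG in 9 of 10 donors. One sacral library, that of F3, held 51 of the 105, which leaves 54 without it, and the lumbar library of F10 held 4 of the 6. In the fit without the expression limit its log2 difference was 2.92 ± 0.47 (adjusted p = 0.00275), while Hoxb13 itself had 9 reads in all.

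The antisense transcripts inside the cluster gave no call. Hoxb3os overlaps 1632 exon bases of Hoxb2, which is 49.4% of that gene, and 1140 of Hoxb3, which is 37.9%. The libraries were made from double-stranded cDNA cut by a transposase and strand use in the counting is not stated, so reads of Hoxb2, Hoxb3 and Hoxb3os cannot be told apart by strand. Hoxb3os had a log2 difference of -0.15 ± 0.21 (SE; adjusted p = 0.7 in limma). The antisense transcript 0610040B09Rik, which shares 100 bases with Hoxb5, had a difference of 0.00 ± 0.26 (adjusted p = 0.994). Gm11536, antisense within Hoxb3, had 164 reads in all 20 libraries and stayed under the expression limit.

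The genes that flank the cluster were also under the limit. Ttll6, beyond Hoxb13, had 89 reads in lumbar and 150 in sacral DRG over 10 libraries each. Skap1, beyond Hoxb1 and known as an adaptor of T cell signalling, had 126 and 24 reads (15 of the latter without M7), was lower in sacral DRG in 10 of 10 donors, and had a log2 difference of -2.62 ± 0.49 (SE; adjusted p = 0.00853 in limma without the expression limit).

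The 5′ start of Hoxb8 is shown because this member had the largest fall. The sequence is the 250 bases before the most upstream annotated start (mm9, + strand) among coding transcripts of the consensus set (CCDS) that are not readthrough. Genes without such a transcript were given the most upstream start of any coding transcript. The searched motifs are in capitals: TGATNNAT, the letters of a joint site of HOX proteins and their PBX cofactors, and TTTATNG, those of CDX proteins, both on either strand.
Hoxb8, chr11:96142969-96143218: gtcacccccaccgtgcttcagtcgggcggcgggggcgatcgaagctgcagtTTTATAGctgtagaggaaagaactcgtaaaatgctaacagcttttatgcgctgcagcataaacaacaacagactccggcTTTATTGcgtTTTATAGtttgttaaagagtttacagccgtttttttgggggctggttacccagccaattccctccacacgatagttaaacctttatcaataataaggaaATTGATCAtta
The PBX-HOX letters stood once in this window. Over 22372 protein-coding genes, 6.92% of windows of this length held a match. The CDX letters stood 3 times in it, and 2 of the 3 overlap the letters TATAAA on the other strand. At least 1 CDX match stood in 9.36% of all windows, and the share of windows with 3 was not counted. Hoxb7 has only the readthrough coding transcript in this annotation, so no window was taken for it.

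The make-up of HoxB transcripts differed between the levels, with a smaller share of the high numbers in sacral DRG. The summed level of the 10 genes was 13.3 RPKM ± 1.81 (SD, n = 10) in lumbar and 10.2 ± 4.19 in sacral DRG, and lower in sacral DRG in 9 of 10 embryos. Hoxb7, Hoxb8 and Hoxb9 together made up 63.7% ± 11.7 of the lumbar sum and 46.0% ± 10.6 of the sacral sum, a smaller share in each of the 10 donors. The share of Hoxb5 was 13.7% ± 5.08 in lumbar and 24.7% ± 4.57 in sacral DRG, larger in each of the 10 donors. Hoxb9 went from 30.2% ± 5.54 to 19.4% ± 5.67, Hoxb8 from 8.55% ± 3.37 to 4.58% ± 1.52 and Hoxb7 from 25% ± 5.36 to 22% ± 6.13. The lowest joint share of Hoxb7 to Hoxb9 was 28.7%, in the sacral library of M5, and the highest was 72.8%, in lumbar libraries. The shares share a denominator, so a smaller share of one gene raises the others, and no test was made on them.

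Set beside the other clusters, the change in Hoxb9 differed from that in Hoxa9 and Hoxd9. Hoxa9 had 2.90 RPKM ± 0.489 (SD, n = 10) in lumbar and 2.53 ± 0.369 in sacral DRG, and Hoxd9 had 2.07 ± 0.544 and 2.16 ± 0.461. The difference of Hoxb9 was more negative than that of Hoxd9 by 1.20 ± 0.381 on the log2 scale (SD over donors, n = 10), in each of the 10 donors (two-sided exact sign-flip test, p = 0.00195, the smallest that 10 donors allow, adjusted p = 0.00781 over 4 contrasts). Against Hoxa9 the gap was -0.94 ± 0.62, with the same sign in 9 of 10 donors (exact p = 0.00391, adjusted p = 0.00781). Hoxc9 was under the expression limit and was not contrasted. Its level was 0.975 RPKM ± 0.235 in lumbar and 0.654 ± 0.304 in sacral DRG, with 10 to 136 reads per library, and its log2 difference was -0.74 ± 0.27 (SE; adjusted p = 0.179 in limma without the expression limit), lower in 8 of 10 donors (two-sided exact sign-flip test, p = 0.0391). The ratio of Hoxb9 to the summed RPKM of Hoxa9, Hoxc9 and Hoxd9 fell by 0.96 ± 0.476 on the log2 scale, in each of the 10 donors (two-sided exact sign-flip test, p = 0.00195). Hoxb9 made up 39.9% ± 4.08 of group 9 in lumbar and 25.8% ± 5.75 in sacral DRG, and its lowest lumbar share, 34.5%, lay above its highest sacral share, 32.9%. A ratio within a library does not change with the scaling of that library.

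In group 8, the change in Hoxb8 differed from that in Hoxd8, and no difference from Hoxc8 passed the test. Hoxc8 had 3.81 RPKM ± 0.507 (SD, n = 10) in lumbar and 1.35 ± 0.766 in sacral DRG, while Hoxd8 had 4.19 ± 0.559 and 4.18 ± 0.626. The difference of Hoxb8 was more negative than that of Hoxd8, with a gap of -1.29 ± 1.15 on the log2 scale and the same sign in 8 donors (two-sided exact sign-flip test, p = 0.0137, adjusted p = 0.0182). Against Hoxc8 the gap was 0.43 ± 1.02, with values from -1.16 to 2.06 over the donors and a negative sign in 3 of 10 (exact p = 0.217, adjusted p = 0.217), a spread too wide to show whether the 2 genes fell alike. Hoxb8 was the least abundant of the 3, at 12% ± 3.8 of the group in lumbar and 7.78% ± 3.57 in sacral DRG. In group 7, Hoxa7 was also called lower in sacral DRG, at -0.92 beside -0.66 for Hoxb7, and the pair was not contrasted. Hoxb7 made up 26.9% ± 2.67 (SD, n = 10) of that group in lumbar and 31.3% ± 11.1 in sacral DRG, a smaller share in 5 of 10 donors.

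**Figure D3:**
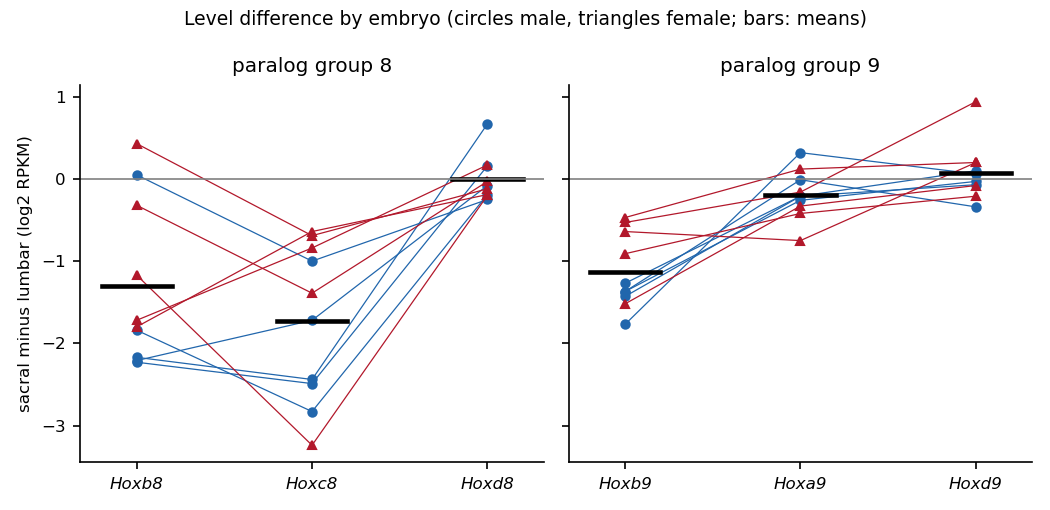
Sacral minus lumbar difference (log2 RPKM, vertical axis) of each embryo for Hoxb8, Hoxc8 and Hoxd8 of paralog group 8 and Hoxb9, Hoxa9 and Hoxd9 of group 9. Values are joined by a line per embryo, with circles for males, triangles for females and black bars for the means of 10 embryos. Hoxc9 of group 9, under the expression limit, is not drawn. Hoxb9 lies below Hoxd9 in 10 of 10 embryos, and Hoxb8 lies below Hoxd8 in 8 of 10 and below Hoxc8 in 3 of 10.

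Over all clusters, called falls were found in groups 6 to 9 and called rises in groups 10 to 12. Among all 14529 genes tested, 586 (4.03%) were called lower in sacral DRG and 392 higher, counts that depended on the scaling. Of the 12 tested identifiers of groups 1 to 8 outside HoxB, 3 were called lower in sacral DRG and 0 higher, with a median log2 difference of -0.06. The 3 were Hoxa7 (-0.92), Hoxc6 (-0.69) and Hoxc8 (-1.73). Of 7 tested genes of groups 10 to 13, 6 were called higher and 0 lower, with a median of 1.77, from Hoxc10 (0.48) to Hoxc12 (5.59). In HoxD none of 3 tested members of groups 1 to 9 was called, beside 6.73% of all genes tested. Their values ran from -0.15 to 0.08, with 0 at an unadjusted p under 0.05 and 0 called by limma voom on the recovered reads.

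**Figure D4:**
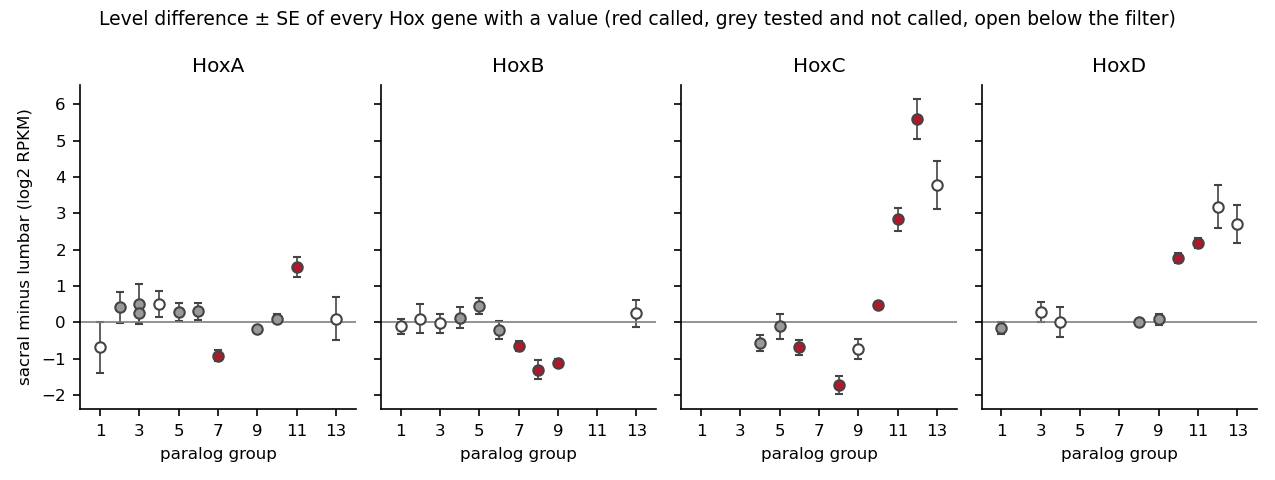
Sacral minus lumbar difference ± SE (log2 RPKM, vertical axis, from the fit without the expression limit) of every Hox gene with a value, by paralog group (horizontal axis) and cluster, with red for genes called in the main test, grey for tested and not called, and open circles under the expression limit. HoxB falls from group 6 to groups 8 and 9 and has nothing in groups 10 to 12, where 6 genes of the other clusters were called higher.

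In males 2 members were called between the levels, Hoxb9 and Hoxb7, beside 0.461% of all genes tested, and limma voom on the recovered reads called 3 of 6. The log2 difference was -1.44 ± 0.15 (SE; adjusted p = 2.99e-05 in limma) for Hoxb9, -0.89 ± 0.18 (adjusted p = 0.0279) for Hoxb7 and -1.68 ± 0.38 (adjusted p = 0.0549) for Hoxb8. The call of Hoxb7 in males was lost without M1, M3, M5, M7 or F3, and Hoxb8 was called without M5 or F8. In females only Hoxb9 was called, beside 0.881% of all genes tested, at -0.81 ± 0.15 (adjusted p = 0.0125), and that call was lost without F3 or F10. Female values were -0.44 ± 0.18 (adjusted p = 0.227) for Hoxb7 and -0.92 ± 0.38 (adjusted p = 0.229) for Hoxb8. Without the pairing of libraries by embryo, 1 member was called in males and 0 in females.

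Whether the level difference itself depended on sex was tested as the difference between the sexes, and 0 of 6 members were called, beside 0.0% of all genes tested (limma). For Hoxb9 the fall was smaller in females by 0.63 ± 0.21 on the log2 scale (SE; unadjusted p = 0.00793, adjusted p = 0.995 in limma). The 5 male donors had differences from -1.77 to -1.27, and the 5 females from -1.52 (F3) to -0.47 (F7). An exact permutation test of the 5 male against the 5 female differences gave p = 0.0397 for Hoxb9 (two-sided, for this gene alone). Hoxb9 was the 1 member at an unadjusted p under 0.05, and limma voom on the recovered reads also called 0. The 6 tested members had less negative or more positive differences in females than in males, by 0.25 to 0.76.

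Between the sexes at one level no member was called. In lumbar DRG 0 of 6 passed, beside 0.330% of all genes tested, with 0 at an unadjusted p under 0.05 and 0 by limma voom, and female minus male differences from -0.25 (Hoxb9) to 0.55 (Hoxb4). In sacral DRG 0 of 6 passed, beside 1.01%, with 1 (Hoxb7) at an unadjusted p under 0.05 and 0 by limma voom. The 6 sacral differences were all positive, from 0.38 for Hoxb9 to 0.96 for Hoxb8, with adjusted p from 0.255 to 0.376. Sacral Hoxb8, for example, had a mean of 0.324 RPKM ± 0.127 (SD, n = 5) in the male and 0.624 ± 0.239 in the female libraries. Sacral Hoxb5 had 1.95 ± 0.861 and 3.34 ± 1.72.

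The members also differed in how they moved with the mitochondrial rRNA share of the library. In a fit with this share as a covariate, an analysis added after seeing the data, 52.6% of all genes tested had a slope past the threshold. Per 10 percentage points of the share, the slope was 0.51 ± 0.11 (SE; adjusted p = 0.000728 in limma) for Hoxb4, 0.40 ± 0.10 (adjusted p = 0.00274) for Hoxb6 and 0.35 ± 0.09 (adjusted p = 0.00304) for Hoxb5. It was -0.12 ± 0.06 (adjusted p = 0.124) for Hoxb7, -0.20 ± 0.13 (adjusted p = 0.208) for Hoxb8 and -0.01 ± 0.06 (adjusted p = 0.901) for Hoxb9. The 3 of 6 members past the threshold are near that pooled share of all genes, but the share joins 2377 positive and 5269 negative slopes. All 3 member slopes were positive, the less common direction. The level differences with the covariate in the fit were -1.13 for Hoxb9, -1.29 for Hoxb8 and -0.66 for Hoxb7. Without M5, F7 and F8, the donors whose mean share was above 40%, they were -1.19, -1.84 and -0.84, and the same 3 members were called.

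**Figure D5:**
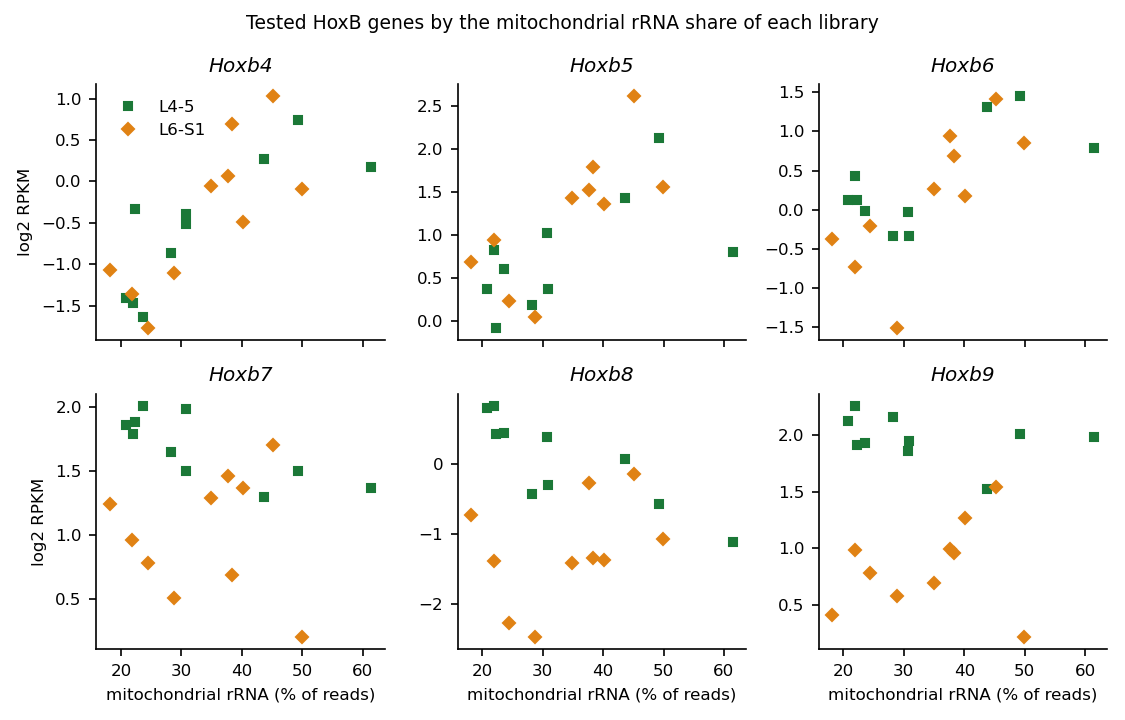
Level of the 6 tested HoxB genes (log2 RPKM, vertical axes) against the percent of reads from mitochondrial rRNA in each of 20 libraries, with squares for lumbar and diamonds for sacral DRG. Hoxb4, Hoxb5 and Hoxb6 are higher in libraries with a larger share, with slopes of 0.51, 0.35 and 0.40 per 10 percentage points, while lumbar Hoxb9 stays between 1.52 and 2.26.

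Among the libraries of one level, Hoxb3 to Hoxb6 varied together. Over the 10 lumbar libraries Pearson's r between pairs of Hoxb3, Hoxb4, Hoxb5 and Hoxb6 ran from 0.603 to 0.849, and over the 10 sacral libraries from 0.793 to 0.976. Between these 4 genes and Hoxb7, Hoxb8 and Hoxb9, r ran from -0.700 to -0.275 in lumbar but from 0.258 to 0.777 in sacral libraries. Hoxb7 and Hoxb8, which share reads, had r of 0.734 and 0.617. Other neighbours were less alike in lumbar libraries, with r of -0.592 for Hoxb6 and Hoxb7, -0.177 for Hoxb2 and Hoxb3 and 0.125 for Hoxb8 and Hoxb9. These are descriptions over libraries that also share the mitochondrial rRNA share, and no test was made. Each r pools the sexes, whose uncalled female minus male differences were 0.38 to 0.96 in sacral and -0.25 to 0.55 in lumbar DRG. The part of sex in r was not tested. Outside the cluster, the tested genes whose log2 RPKM was most like that of Hoxb8 over the 20 libraries were Asb6 (r = 0.799), Prr13 (r = 0.773), Zfyve28 (r = 0.765), Ufm1 (r = 0.749) and Cdo1 (r = 0.743). Both levels entered this r, so the choice itself favours genes that differ between the levels as Hoxb8 does. Of these, Zfyve28 (-0.69 ± 0.14, adjusted p = 0.00744 in limma) and Cdo1 (-0.50 ± 0.10, adjusted p = 0.00472) were called lower in sacral DRG, beside 4.03% of all genes tested. Given that choice, these calls are no separate evidence.

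Calls among the proteins that work with HOX factors or set their expression stand beside 6.73% of all genes tested. With lists this short, the counts do not set these genes apart from that share, and no test of a list was made. The TALE cofactors, homeodomain proteins of the PBX, MEIS and PKNOX families that bind DNA jointly with HOX proteins, had 0 of 8 tested genes called in limma and 0 by limma voom, with 3 at an unadjusted p under 0.05 (Meis1 -0.33, Pknox1 0.24 and Pknox2 -0.30), and a median log2 difference of 0.06. The Polycomb and trithorax genes, which keep Hox clusters silent or active, had 0 of 17 called in limma and 0 by limma voom, with 1 at an unadjusted p under 0.05 (Pcgf2, 0.27), and differences from -0.13 to 0.27. Among 9 tested regulators, the list of which joins retinoic acid enzymes and receptors, CDX factors, Gdf11, Gmnn and Egr2 with others, 1 was called higher and 1 lower, with 5 at an unadjusted p under 0.05 and 3 called by limma voom. The gene called higher is not reported here. Egr2, a regulator of Hoxb2 in the hindbrain and of myelin in Schwann cells, was lower in sacral DRG, at -1.10 ± 0.27 (SE; adjusted p = 0.0185 in limma). Aldh1a2, which makes retinoic acid, had a difference of 0.68 ± 0.21 (adjusted p = 0.0574) and Rara, a receptor for it, 0.34 ± 0.11 (adjusted p = 0.0617). Cdx1, Cdx2 and Cdx4 were at 0 in more than 10 libraries each.

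Markers of other cell types moved with the level. In limma, 4 of 7 fibroblast and meningeal markers, 1 of 3 cartilage markers and 2 of 4 endothelial markers were called higher in sacral DRG. Called lower were 3 of 7 glial markers, S100b and Fabp7 among them. Of all 14529 genes tested, 392 were called higher and 586 (4.03%) lower, counts that depended on the scaling. The summed fibroblast markers were 191 to 440 RPKM in lumbar and 266 to 593 in sacral libraries, and higher in the sacral library of 9 of 10 donors. The summed glial markers were 224 to 330 RPKM in lumbar and 157 to 272 in sacral libraries, lower in 9 of 10. None of 7 sensory neuron markers was called by limma or limma voom, with 2 at an unadjusted p under 0.05, differences from -0.45 to -0.05, and sums of 270 to 736 RPKM in lumbar and 161 to 669 in sacral libraries. No tested marker of skeletal muscle (3), spinal cord (1) or autonomic neurons (1) was called, with 0 at an unadjusted p under 0.05 and 0 by limma voom. The spinal cord genes Olig2, Mnx1 and Chat were at 0 in more than 10 libraries, as was Hand2 of sympathetic neurons. The part of these cell types in the HoxB differences was not tested.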

How the data were processed

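Total RNA of whole DRG was amplified to cDNA, tagged by a transposase and sequenced on an Illumina instrument. The authors aligned reads to mm9 with Subread (versions 1.18 and 1.20.6 in the submitters' processing notes), counted unique reads per Ensembl gene with featureCounts, scaled them with TMM of edgeR 3.12.1 and voom of limma 3.26.9, and deposited log2 RPKM values. Each of the 20 columns was matched to its sample by label. Gene lengths of GENCODE M1 turned 97.66% of the values into whole reads (within 0.05), and a blank was set to 0.5 reads. The libraries carry no molecular identifiers, so limits on counts cover counting error only.

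Differences were tested with limma 3.58.1 (R 4.3.3, statmod 1.5.0) on the log2 RPKM of all 20 libraries, with a mean per group, the embryo as a block through duplicateCorrelation (correlation 0.342, pairs being the libraries of 1 embryo), eBayes with a trend, and Benjamini-Hochberg adjustment over the 14529 genes whose mean log2 RPKM reached that of 1 RPKM in a group. P-values were two-sided. Those of limma rest on the spread of libraries within the groups, with 1 correlation between paired libraries taken for all genes. With the embryo as a fixed effect in place of the block, the adjusted p between the levels in limma was 0.000287 for Hoxb9, 0.0228 for Hoxb7 and 0.0396 for Hoxb8. Contrasts with paralogs used exact sign-flip permutation tests. The script was tested on simulated data. Genes named are the 10 members, the annotated genes between Hoxb1 and Hoxb13 with a neighbour on either side, paralogs of groups 8, 9 and 13, the 5 genes most like the member with the largest difference, and lists of cofactors, regulators and markers. Members and lists were chosen with earlier results of these data known. Examples from the lists and the other Hox genes were named after their values were seen. Kmt2a was not found under that symbol. Columns without a sample numbered 0.
Alternatives were no or a higher expression limit, blanks left missing, log2(RPKM + 0.5), other blocks, voom on the recovered reads, other scalings, array weights, the mitochondrial rRNA share as a covariate, and each embryo left out. The slopes on that share, the fit without the 3 donors above 40%, the Hoxb7 reads less those of Hoxb8 and the ratio without Hoxc9 were added after seeing the data. Some items of the lists and windows are not reported here.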

Additional observations from a re-analysis of the deposited data

How the results depend on the processing

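Hoxb7, Hoxb8 and Hoxb9 were called lower in sacral DRG in the pooled comparison under the 21 alternatives that tested them (the limit of 5 RPKM left no member), with log2 differences from -0.74 to -0.55, -1.57 to -0.72 and -1.17 to -0.94. The smallest Hoxb8 value came from log2(RPKM + 0.5), which by construction shrinks low values. The count of 2 members called in males was 1 without the expression limit, 1 without the replicate block, and 1 to 3 when single embryos were left out. The count of 1 in females was 0 without the replicate block and 0 to 1 when single embryos were left out. The cause was not tested. Over all genes the count of 978 calls between the levels was 507 without the expression limit, 154 without the block, 2998 with array weights, and 401 (without F10) to 1594 (without F8) when single embryos were left out. Without the block, male libraries gave 21 calls over all genes in place of 67 and female libraries 16 in place of 128, and no other count of members changed. With limma voom 3 members were called in males. Hoxb4, not called at any setting, ranged from -0.05 (without male donor M8, a change of sign) to 0.23 when single embryos were left out. The counts of 0 for the sexes and the interaction did not move under the alternatives run for them. Of the 4 paralog contrasts 3 passed in each rerun, and the change in the Hoxb9 ratio ranged from -1.03 to -0.85 without single embryos and was -1.05 against Hoxa9 and Hoxd9 alone. Hoxb1, Hoxb2, Hoxb3 and Hoxb13 could not be fitted under the expression limit. Depth limits Hoxb1, Hoxb2 and Hoxb13 (at most 41 reads per library) and sacral Hoxb8.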
